A study of Rattus norvegicus with 72 samples.

Results

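Luminal epithelial cells line the ducts and alveoli of the mammary gland, and 7 genes that mark them were followed here across 3 tissues of pregnant and lactating rats: the keratins Krt7, Krt8, Krt18 and Krt19 and the surface proteins Prom1, Epcam and Muc1. They were taken as the probe sets annotated with exactly 1 gene symbol, equal to one of these names. Each gene had 1 such probe set, so the 7 genes stand for 7 of 14217 single-symbol genes on an array with 31042 probe sets. Keratins form the intermediate filaments of epithelial cells from pairs of a type II protein (Krt7, Krt8) and a type I protein (Krt18, Krt19). Krt8 and Krt18 are the general pair of simple epithelia and are also made by hepatocytes, while Krt7 and Krt19 are known from ducts, including the bile ducts, and from the mesothelium that covers abdominal fat. Prom1 (CD133) sits in membrane protrusions and marks a luminal subset in mouse mammary gland, Epcam is a homophilic adhesion protein, and Muc1 is an apical mucin that also coats the milk fat globule.

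RNA of mammary gland, liver and adipose tissue was measured on 72 Affymetrix rat arrays in 15 groups. In each of the 3 tissues the groups were lactating rats in hypergravity, lactating rats at standard gravity, pregnant rats in hypergravity and pregnant rats at standard gravity, with 5 arrays per group. A further set of 12 mammary arrays from pregnant rats held 4 arrays each of microgravity, flight control and vivarium control. The labels give no strain, age, day of gestation or lactation, or strength of the hypergravity, and all tissues were whole tissue. Codes in the labels (57S, 60H and so on) recur in mammary gland, liver and adipose tissue and were read as 20 rats, with 1 array per rat and tissue. Values are RMA signals on the log2 scale, a background-corrected, quantile-normalized summary per probe set, so 1 unit is a doubling. Array medians were 4.32 to 4.56 in the first 12 groups and 4.87 to 5.02 in the microgravity set, which was therefore used only within itself. With 4 or 5 arrays in a group, small differences could not be resolved.

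The arrays M210H, labelled mammary, and A210H, labelled adipose, are both labelled lactating and hypergravity; they went against their tissue labels and were left out. M210H had a mean of 3.11 over 6 milk protein genes and of 10.68 over 17 adipocyte genes, and A210H had 13.07 and 7.94. The lactating hypergravity group therefore had 4 arrays in both tissues. Milk protein means of all other mammary arrays, the microgravity set included, ran from 12.63 to 13.23. Some arrays carried markers of a further tissue: the hepatocyte list reached 9.56 in M56H and 6.55 in M52S, and the skeletal muscle list 8.15 in M50H and 7.76 in M212H among mammary arrays, and 11.69 in A48S and 10.32 in A217H among adipose arrays.

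On the GRCr8 assembly Krt7 (gene 300242) lies at chr7:134407626-134423787, Krt8 (gene 25626) at chr7:135002886-135010339 and Krt18 (gene 294853) at chr7:135036168-135039844, so that 25.8 kb separate Krt8 from Krt18. Krt19 (gene 360626) lies at chr10:85576235-85580952, Prom1 (gene 60357) at chr14:71202303-71307008, Epcam (gene 171577) at chr6:12633715-12649678 and Muc1 (gene 24571) at chr2:176933312-176938497. Krt8, Krt18 and Epcam moved together in the mammary comparisons below, and windows at their annotated starts are shown for that reason. They were taken from RefSeq on GRCr8, 250 bases before to 50 bases after the annotated start, and promoter activity was not tested. They are chr7:135010290-135010589 on the minus strand for Krt8, chr7:135035918-135036217 on the plus strand for Krt18 and chr6:12649629-12649928 on the minus strand for Epcam. Capitals mark matches to 3 short motifs searched on both strands: TATAAA (the TATA box), GGGCGG (a GC box) and TGANTCA (the AP-1 site).
Krt8: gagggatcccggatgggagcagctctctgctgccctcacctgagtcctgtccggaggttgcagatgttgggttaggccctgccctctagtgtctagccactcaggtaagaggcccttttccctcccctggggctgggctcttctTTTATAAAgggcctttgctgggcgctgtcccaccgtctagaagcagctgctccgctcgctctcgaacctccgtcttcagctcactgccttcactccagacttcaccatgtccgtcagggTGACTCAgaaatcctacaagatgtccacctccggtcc
Krt18: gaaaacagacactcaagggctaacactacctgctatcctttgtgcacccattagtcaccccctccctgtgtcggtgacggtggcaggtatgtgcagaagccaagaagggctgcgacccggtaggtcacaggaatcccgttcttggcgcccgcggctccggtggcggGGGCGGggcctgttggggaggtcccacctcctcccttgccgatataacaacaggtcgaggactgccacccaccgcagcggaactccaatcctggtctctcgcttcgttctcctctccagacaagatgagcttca
Epcam: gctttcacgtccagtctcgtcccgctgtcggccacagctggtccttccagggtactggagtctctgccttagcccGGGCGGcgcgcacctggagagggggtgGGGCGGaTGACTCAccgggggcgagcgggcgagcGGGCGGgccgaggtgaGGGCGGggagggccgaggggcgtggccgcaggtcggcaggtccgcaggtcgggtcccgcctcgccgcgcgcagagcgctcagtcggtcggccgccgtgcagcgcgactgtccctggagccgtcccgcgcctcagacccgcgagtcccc
The Krt8 window held 2 overlapping TATAAA matches, 1 on each strand, from base -106 to base -99 relative to the start. It also held 1 TGANTCA match from base 13 to base 19. The annotated start of Krt8 falls on an atg, followed by codons without a stop to the end of the window. The TGANTCA match lies among these codons. The Krt8 window may thus be placed on the start of translation, and the start of transcription was not tested. The Krt18 window, with 60.3% G or C, held 1 GGGCGG match from base -84 to base -79 and none of the other motifs. The Epcam window, with 75.7% G or C, held 4 GGGCGG matches and 1 TGANTCA match. Of 33469 RefSeq windows of this length 14.2% held TATAAA, 33.1% held GGGCGG and 7.33% held TGANTCA. None of the motifs was found in all 3 windows. Windows were matched for 5 of the 7 genes; Krt7 and Krt19 are named only.

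The 7 genes differed in mean between tissues, in different ways, and the ranges of Krt7 and Prom1 overlapped between every pair of tissues. Epcam and Muc1 were the clearest mammary genes. Epcam had a lowest, median and highest value of 9.61, 10.83 and 11.06 in 19 mammary arrays, against 2.82, 3.17 and 5.12 in 19 adipose arrays and 3.24, 4.34 and 5.68 in 20 liver arrays. Muc1 had 7.15, 9.48 and 10.82 in mammary gland, against 3.20, 3.70 and 4.13 in adipose tissue and 3.72, 4.09 and 5.28 in liver. For both genes every mammary array lay above every array of the other tissues, and the adipose and liver medians lay within or under the range of the array medians. Averaged over the 4 stage and gravity groups, Epcam was 79.2-fold higher in mammary gland than in liver (log2 difference 6.31, SE 0.14, limma adjusted p = 2.0e-39) and 160-fold higher than in adipose tissue (7.32, SE 0.14, limma adjusted p = 2.2e-41). Muc1 was 38.7-fold higher in mammary gland than in liver and 53.6-fold higher than in adipose tissue.

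The keratins were shared with the other tissues. Krt8 had a lowest, median and highest value of 8.12, 10.06 and 10.63 in mammary gland, against 5.08, 6.44 and 7.35 in adipose tissue and 8.28, 8.72 and 9.67 in liver. Krt18 had 9.99, 11.46 and 12.09 in mammary gland, against 4.10, 6.91 and 8.51 in adipose tissue and 11.08, 11.58 and 12.08 in liver. Both keratins were thus high in mammary gland and liver and overlapped between them, and lay lower in every adipose array than in any array of the other tissues. Krt8 was 1.78-fold higher in mammary gland than in liver (limma adjusted p = 1.9e-06), whereas Krt18 did not pass the threshold there (log2 difference -0.41, 95% interval -0.79 to -0.03, limma adjusted p = 0.054). The tissues come from the same rats, and with the rat as a replicate block Krt18 was called lower in mammary gland (-0.39, limma adjusted p = 0.042). Both results are averages over the 4 stage and gravity groups. In lactating rats at standard gravity means in mammary gland and liver were 10.18 and 11.64 for Krt18, and 8.49 and 8.89 for Krt8. Krt18 had 11.59 and 11.53 in lactating hypergravity, 11.49 and 11.66 in pregnant hypergravity, and 11.47 and 11.53 in pregnant standard gravity rats. In these groups Krt8 was higher in mammary gland (9.88 and 9.22, 10.03 and 8.41, 10.19 and 8.75). Krt19 had 7.76, 10.78 and 11.83 in mammary gland, against 6.14, 8.72 and 11.07 in adipose tissue and 3.98, 5.38 and 6.71 in liver. Its mammary and adipose ranges overlapped, and its mean was 29.6-fold higher in mammary gland than in liver and 3.02-fold higher than in adipose tissue. Averaged over the 4 stage and gravity groups, Krt7 was the only one of the 7 genes lower in mammary gland than in adipose tissue, by 0.73 log2 units (limma adjusted p = 0.0058). It had 3.64, 5.10 and 9.30 in mammary gland, against 3.93, 6.25 and 7.51 in adipose tissue and 3.23, 3.70 and 4.53 in liver. The sign differed by group. In lactating hypergravity rats the Krt7 mean was higher in mammary gland (7.04, against 5.74 in adipose tissue). It was lower in lactating rats at standard gravity (3.87 against 6.57) and in pregnant rats (5.48 against 6.53 in hypergravity, 5.08 against 5.53 at standard gravity). Averaged likewise, Prom1 was the only one of the 7 genes called lower in mammary gland than in liver, by 1.46 log2 units (limma adjusted p = 1.7e-10). It had 6.27, 9.34 and 10.73 in mammary gland, against 6.93, 7.67 and 8.89 in adipose tissue and 8.16, 10.19 and 11.03 in liver. The gap to liver was larger in lactation. Mean Prom1 was 6.99 in mammary gland against 9.01 in liver in lactating hypergravity rats, and 6.97 against 10.03 at standard gravity. In pregnancy it was 10.36 against 10.55 in hypergravity and 9.89 against 10.46 at standard gravity. Adipose means (7.66 and 7.58 in lactation, 7.62 and 8.08 in pregnancy) lay above the mammary means in lactation and below them in pregnancy. Of these genes 6 of 7 were called between mammary gland and liver, where 66.6% of all probe sets were, and 3 of 7 had ranges apart, where 10.2% did. Against adipose tissue 7 of 7 were called, where 52% of all probe sets were, and 4 of 7 had ranges apart, where 4.12% did. Between adipose tissue and liver all 7 were called, where 61.7% of all probe sets were, and Krt8 and Krt18 had ranges apart, where 10.7% did: Krt7 was 5.10-fold and Krt19 9.80-fold higher in adipose tissue, and Krt8, Krt18 and Prom1 were lower in it, Krt18 by 4.78 log2 units. Epcam and Muc1 had means near or under the array medians in both of these tissues, so no order is read from their calls. With M210H and A210H kept, Epcam (limma adjusted p = 0.18) and Muc1 (0.73) were not called there.

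**Figure D1:**
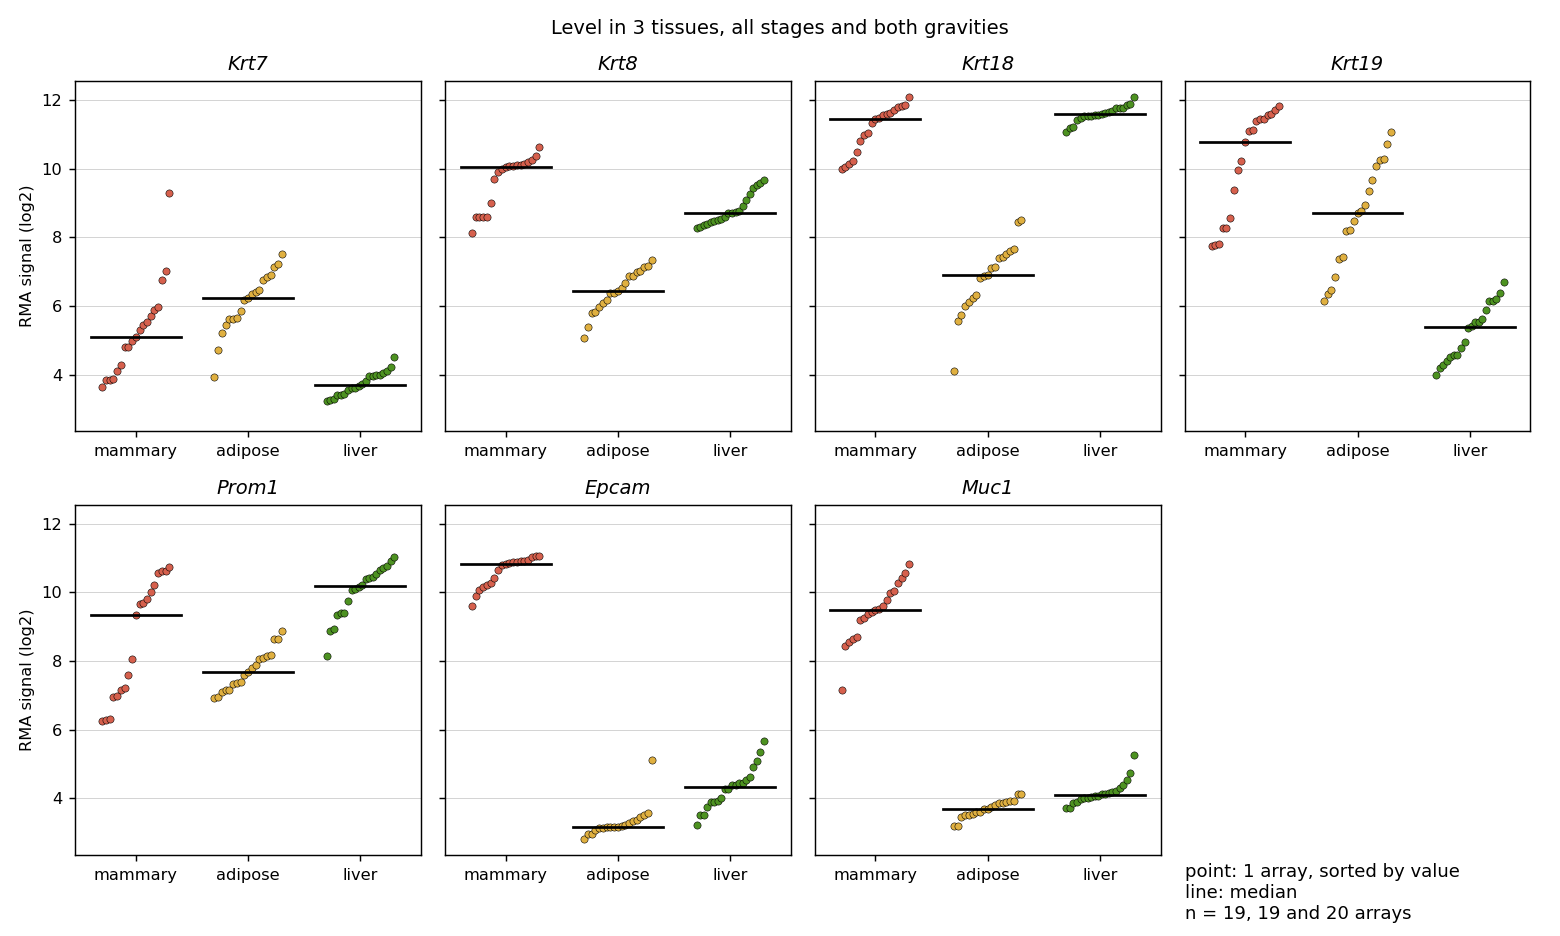
RMA signal on the log2 scale of the 7 genes in mammary gland, adipose tissue and liver. Each point is 1 array, arrays are sorted by value within a tissue, and lines are medians. Epcam and Muc1 are high only in mammary arrays of the 3 tissues, Krt8 and Krt18 in mammary and liver arrays, and Prom1 has a liver median of 10.19 beside a mammary range of 6.27 to 10.73.

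In mammary gland at standard gravity lactation went with lower levels of most of these genes. Of the 7 genes 5 were lower in lactation and 0 higher (34.1% of all probe sets were called, 17.3% lower and 16.8% higher), and their median log2 fold change was -1.29, where that of all probe sets was -0.01. Lactating and pregnant arrays did not overlap for 5 of the 7 genes, as for 26% of all probe sets. Prom1, Krt19, Krt8, Krt18 and Epcam fell, Krt7 did not pass the threshold, and Muc1 was higher in mean without passing it. In hypergravity, in the same contrast, Prom1 fell, Krt7 rose and the other 5 genes were not called (29.3% of all probe sets were called, 14.6% lower and 14.6% higher), and only Prom1 had groups that did not overlap, as 17.8% of all probe sets did. In whole tissue fewer luminal cells and less RNA per cell cannot be told apart.

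The pair Krt8 and Krt18 moved alike. Krt8 had 10.36, 9.01, 10.07 and 10.06 in lactating hypergravity rats, against 8.58, 8.12, 8.59, 8.58 and 8.60 in lactating standard gravity rats. In pregnancy it had 10.12, 10.26, 10.19, 9.69 and 9.91 in hypergravity, against 10.07, 9.99, 10.63, 10.15 and 10.10 at standard gravity. All 5 lactating arrays at standard gravity lay below every array of the other 3 groups, which overlapped each other. Krt8 was 3.24-fold lower in lactation than in pregnancy at standard gravity (log2 fold change -1.69, SE 0.21, limma adjusted p = 1.1e-05), and in hypergravity the difference was -0.16 (95% interval -0.62 to 0.30, limma adjusted p = 0.64). Within lactation it was 2.61-fold higher in hypergravity than at standard gravity (1.38, SE 0.22, limma adjusted p = 4.0e-04).

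Krt18 had 11.82, 11.05, 11.81 and 11.70 in lactating hypergravity rats, against 10.48, 10.05, 10.23, 10.15 and 9.99 in lactating standard gravity rats. In pregnancy it had 11.33, 12.09, 11.48, 11.56 and 10.98 in hypergravity, against 11.46, 11.87, 11.63, 10.82 and 11.58 at standard gravity. The lactating arrays at standard gravity again lay below every other mammary array. Krt18 was 2.45-fold lower in lactation than in pregnancy at standard gravity (log2 fold change -1.29, SE 0.21, limma adjusted p = 1.7e-04), and 0.11 higher in hypergravity (95% interval -0.37 to 0.58, limma adjusted p = 0.77). Within lactation it was 2.66-fold higher in hypergravity (1.41, SE 0.23, limma adjusted p = 4.3e-04).

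Krt7 and Krt19, the duct keratins, had larger SDs than Krt8 and Krt18 in every mammary group but 1: Krt7 in lactation at standard gravity, with an SD of 0.16. Krt7 had 9.30, 5.10, 7.02 and 6.76 in lactating hypergravity rats, against 4.10, 3.64, 3.86, 3.89 and 3.86 in lactating standard gravity rats. In pregnancy Krt7 had 4.81, 5.72, 5.90, 5.98 and 4.99 in hypergravity, against 5.31, 5.54, 4.81, 4.28 and 5.44 at standard gravity. The lactating arrays at standard gravity, all under the array medians, lay below every other mammary array. Krt7 was 9.01-fold higher in hypergravity than at standard gravity within lactation (log2 fold change 3.17, SE 0.54, limma adjusted p = 7.3e-04). Its size depends on single arrays: the log2 fold change was 2.42 without M203H and 3.82 without M212H, and called in both cases. Its fall in lactation at standard gravity did not pass the threshold (-1.21, SE 0.51, limma adjusted p = 0.076, although the groups did not overlap) and passed it without M203H (limma adjusted p = 0.01) or M212H (limma adjusted p = 0.025). The Krt7 fall was called in 6 of 28 alternatives, among them only the groups compared (limma adjusted p = 0.0012). Its rise in lactation in hypergravity (1.56, SE 0.54, limma adjusted p = 0.036) was lost without M59H (limma adjusted p = 0.088), M203H (log2 fold change 0.81, limma adjusted p = 0.15), M60H (0.077), M217H (0.067) or M206H (0.053), and was 2.21 without M212H.

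Krt19 had 11.11, 11.70, 10.78 and 10.22 in lactating hypergravity rats, against 7.78, 9.97, 8.27, 7.81 and 8.56 in lactating standard gravity rats. Krt19 values in pregnancy were 11.39, 9.39, 11.46, 11.58 and 7.76 in hypergravity, against 11.83, 11.56, 11.44, 8.26 and 11.12 at standard gravity. Of 10 pregnant arrays 7 lay at 11.12 or above, and single rats of both pregnant groups lay as low as the lactating rats at standard gravity, whose values overlapped the pregnant ones. Krt19 was 5.14-fold lower in lactation at standard gravity (log2 fold change -2.36, SE 0.74, limma adjusted p = 0.019), a call that was lost without M52S (limma adjusted p = 0.053). Without M57S, the low array of the pregnant group, the change was -3.01 (limma adjusted p = 0.0024). In hypergravity lactation and pregnancy differed by 0.64 (95% interval -1.01 to 2.29, limma adjusted p = 0.59). Within lactation every hypergravity array lay above every standard gravity array, but the difference of 2.48 (SE 0.79) missed the threshold (limma adjusted p = 0.056) and passed it without M57S (limma adjusted p = 0.023), M60H (0.021), M201S (0.038) or M56H (0.045). It was called in 9 of 28 alternatives, among them only the groups compared (limma adjusted p = 0.005) and array weights (0.0093).

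Prom1 fell in lactation at both gravities and was not called between gravities. It had 6.27, 6.95, 7.60 and 7.16 in lactating hypergravity rats, against 6.28, 7.21, 6.31, 6.99 and 8.05 in lactating standard gravity rats. In pregnancy it had a lowest, median and highest value of 9.67, 10.57 and 10.73 in hypergravity, against 9.34, 9.81 and 10.63 at standard gravity. Every lactating array lay below every pregnant array, and the gravity groups overlapped within each stage. Prom1 was 10.3-fold lower in lactation in hypergravity (log2 fold change -3.36, SE 0.35, limma adjusted p = 7.0e-06) and 7.60-fold lower at standard gravity (-2.93, SE 0.33, limma adjusted p = 5.6e-06). The difference between gravities was 0.03 in lactation (95% interval -0.71 to 0.76, limma adjusted p = 0.99) and 0.46 in pregnancy (95% interval -0.23 to 1.16, limma adjusted p = 0.96).

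Epcam moved with the Krt8 and Krt18 pair, over a smaller range. It had 10.90, 10.65, 11.05 and 11.06 in lactating hypergravity rats, against 10.21, 9.61, 10.07, 9.89 and 10.16 in lactating standard gravity rats. In pregnancy it had 10.92, 10.83, 10.86, 10.28 and 10.81 in hypergravity, against 10.92, 10.88, 11.02, 10.42 and 10.94 at standard gravity. The lactating arrays at standard gravity were below all others. Epcam was 1.8-fold lower in lactation at standard gravity (log2 fold change -0.85, SE 0.15, limma adjusted p = 3.8e-04), 0.18 higher in hypergravity (95% interval -0.17 to 0.52, limma adjusted p = 0.46), and 1.90-fold higher in hypergravity than at standard gravity within lactation (0.93, SE 0.16, limma adjusted p = 9.7e-04).

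Muc1 had a higher mean in lactation at both gravities, and neither difference was called. It had 8.69, 10.58, 9.61 and 9.97 in lactating hypergravity rats, against 10.05, 10.42, 10.27, 10.82 and 9.26 in lactating standard gravity rats. In pregnancy it had 9.20, 9.77, 8.57, 8.43 and 7.15 in hypergravity, against 9.48, 9.43, 9.51, 8.65 and 9.37 at standard gravity. The 4 groups overlapped. The difference between lactation and pregnancy was 1.09 in hypergravity (limma adjusted p = 0.073, and 0.021 without M55H and 0.03 without M203H) and 0.88 at standard gravity (95% interval 0.00 to 1.75, limma adjusted p = 0.12). It was called in 3 of 28 alternatives in hypergravity and in 2 of 28 at standard gravity. The latter were array weights (0.95, limma adjusted p = 0.025) and only the groups compared (limma adjusted p = 0.022). Gravity within lactation changed it by -0.45 (95% interval -1.38 to 0.48, limma adjusted p = 0.71).

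**Figure D2:**
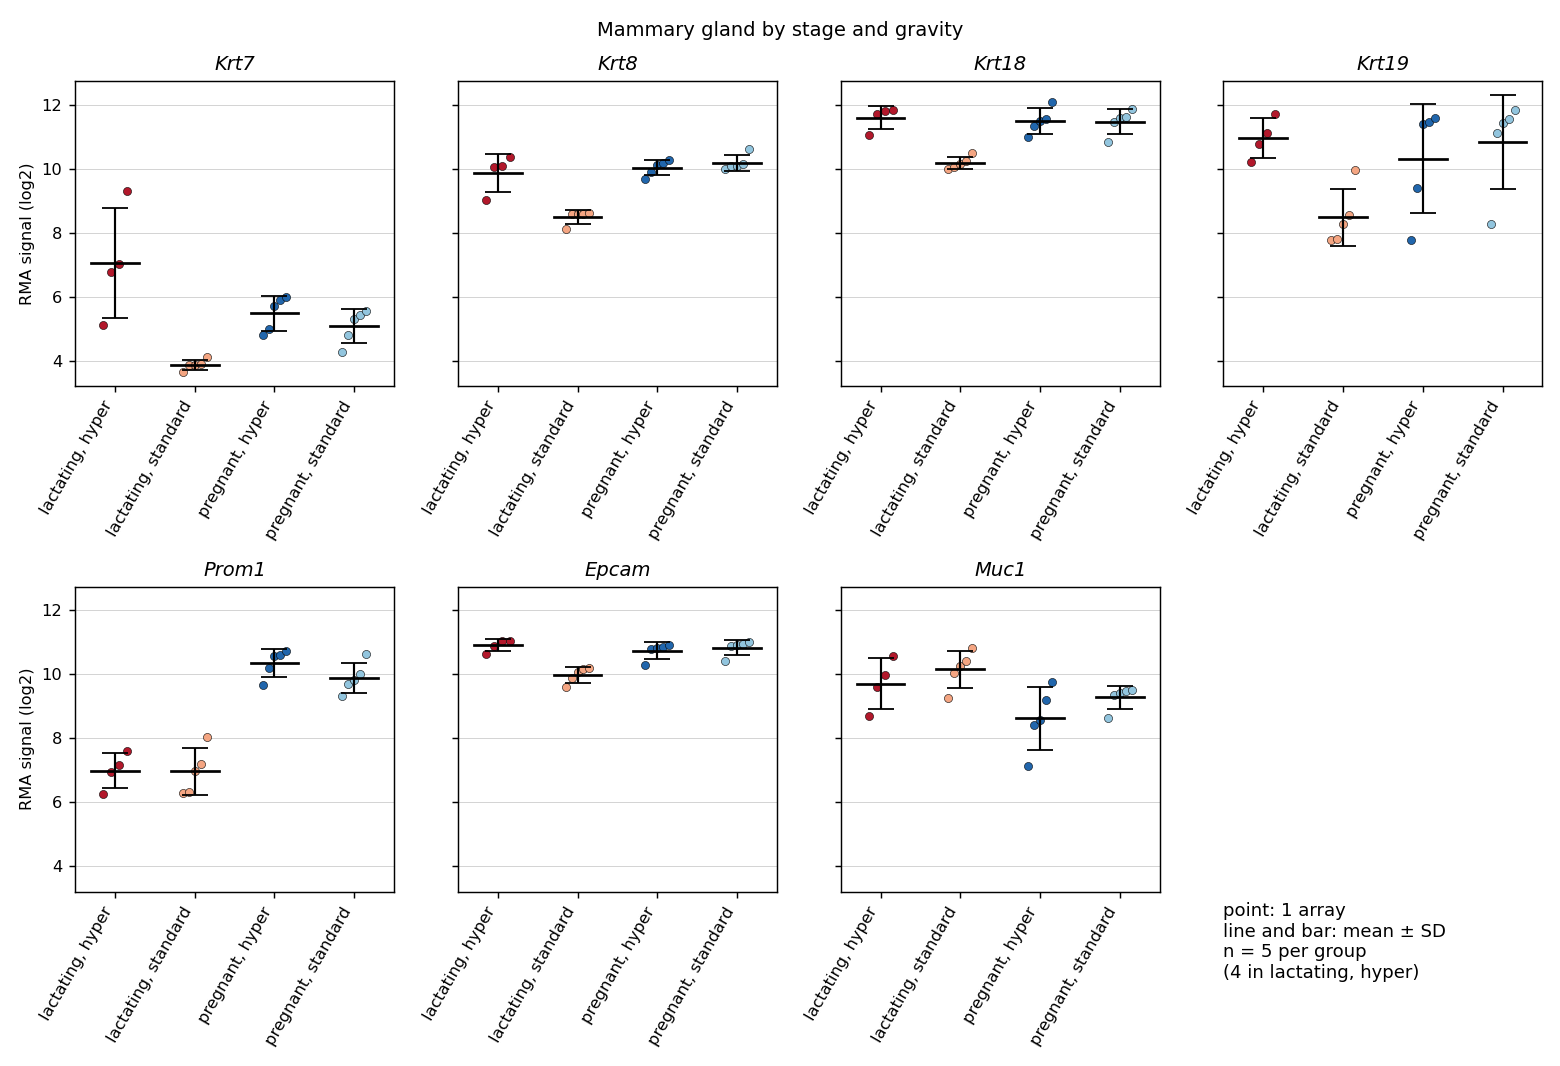
RMA signal on the log2 scale of the 7 genes in the 4 mammary groups of the standard gravity and hypergravity set, with each array as a point and mean ± SD as line and bar. The lactating arrays at standard gravity are the lowest group for Krt7, Krt8, Krt18 and Epcam, while Prom1 is low in both lactating groups.

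In lactating mammary gland hypergravity thus went with higher Krt7, Krt8, Krt18 and Epcam. Krt19 lay apart in the same direction without being called (limma adjusted p = 0.056). Of the 7 genes 4 were higher and 0 lower (9.43% of all probe sets were called, 4.49% higher and 4.94% lower), and 5 of 7 had groups that did not overlap, where 14.7% of all probe sets did. With M210H kept under its label, Krt7 and Krt19 were called here, and Krt8 (0.90, limma adjusted p = 0.17), Krt18 (0.76, limma adjusted p = 0.44) and Epcam (-0.57, limma adjusted p = 0.86) were not. M210H had an adipocyte list mean of 10.68 and a milk protein mean of 3.11, so this setting mixes tissues and cannot decide on gravity. The gravity contrast in lactation and the stage contrast at standard gravity share the 5 lactating arrays at standard gravity. In pregnancy 0 of the 7 genes were called between hypergravity and standard gravity by limma, 0 had an unadjusted p under 0.05 and 0 had groups that did not overlap (of all probe sets 0.00322%, 1 in number, were called, 1668 had an unadjusted p under 0.05 and 0.693% had groups that did not overlap). The intervals in pregnancy were widest for Krt19 (-2.08 to 1.03) and narrowest for Epcam (-0.42 to 0.23).

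The difference of the stage effect between the gravities was tested in the same fit. It was positive and called for 4 of the 7 genes (4.03% of all probe sets were called, 2.18% higher and 1.85% lower): Krt8 by 1.54 (SE 0.30, limma adjusted p = 0.006), Krt18 by 1.40 (SE 0.31, limma adjusted p = 0.014), Epcam by 1.02 (SE 0.22, limma adjusted p = 0.013) and Krt7 by 2.77 (SE 0.74, limma adjusted p = 0.041). The Krt7 call held in 14 of 27 alternatives and was lost without M216S, M201S, M219S, M214S, M202S, M52S, M42S, M44S, M48S, M59H, M60H, M217H or M206H, each left out on its own (limma adjusted p = 0.057 to 0.079); the Krt7 value was 2.02 without M203H and 3.42 without M212H. With M210H kept, which mixes tissues in its group, Krt8 (1.06, limma adjusted p = 0.4), Krt18 (0.74, limma adjusted p = 0.72) and Epcam (-0.48, limma adjusted p = 0.94) were not called. Krt19 had 3.00 (SE 1.08, limma adjusted p = 0.16, and 0.035 without M57S), Prom1 -0.44 (limma adjusted p = 0.78) and Muc1 0.21 (limma adjusted p = 0.93).

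**Figure D3:**
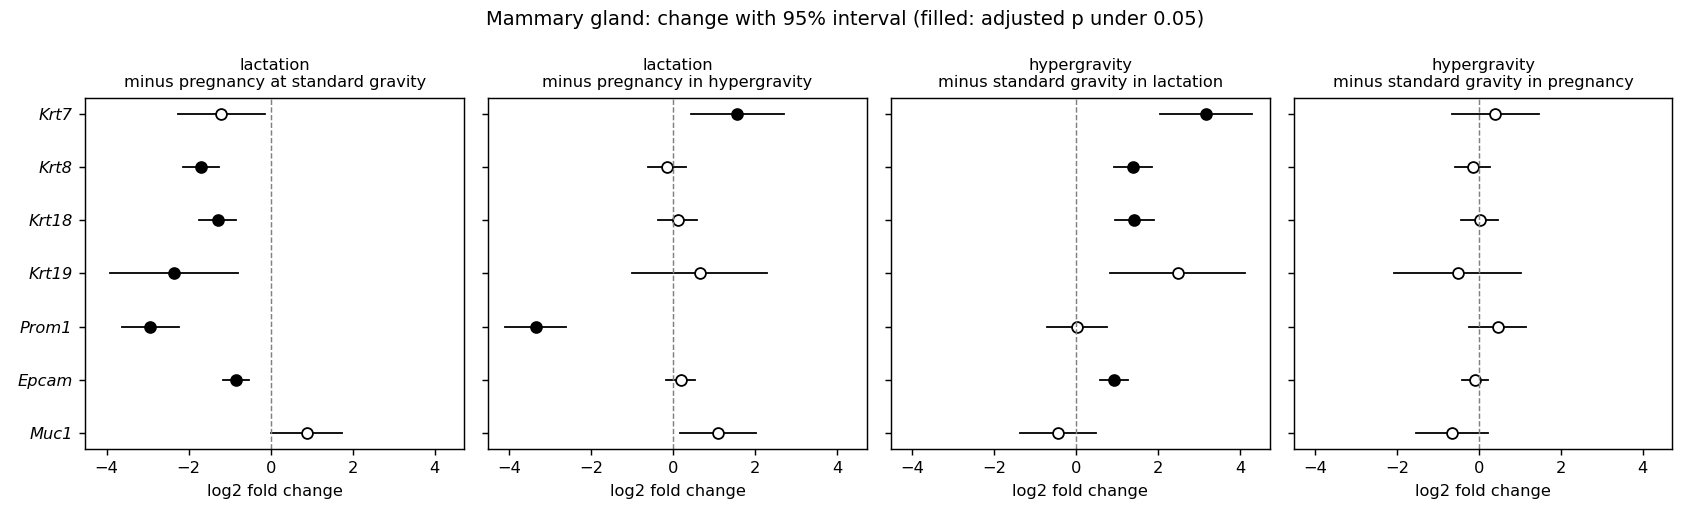
Log2 fold changes of the 7 genes in mammary gland with 95% intervals in 4 contrasts, where filled points passed an adjusted p of 0.05. Krt8, Krt18 and Epcam fall in lactation at standard gravity, are near 0 in lactation in hypergravity and rise with hypergravity in lactation, and in pregnancy 0 of the 7 genes are called.

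Further epithelial genes were described from lists, whose counts stand beside the share of all probe sets called in the same contrast. Of 26 measured junction and adhesion genes 9 were higher and 1 lower in hypergravity than at standard gravity in lactating mammary gland (4.49% of all probe sets were higher and 4.94% lower), among them Dsc2, a desmosomal cadherin (log2 fold change 2.33, limma adjusted p = 1.0e-04), Cldn4, a claudin of tight junctions (2.08, limma adjusted p = 7.9e-04), and Cd9, a tetraspanin (1.65, limma adjusted p = 0.016). Their median was 0.32, where that of all probe sets was 0.01. In lactation at standard gravity 3 of the 26 were higher and 10 lower than in pregnancy (16.8% and 17.3% of all probe sets), with Evpl (-4.13) and Ppl (-2.46), plakins that link keratin filaments to the membrane, the most lowered, and the surface protein Cd24 raised by 1.81. In hypergravity 8 were higher and 4 lower (14.6% and 14.6% of all probe sets), with Evpl at -2.93 and Cd9 at 2.27. The difference of the stage effects was called for 5, all higher (2.18% of all probe sets were higher), among them Dsc2 (2.71) and the desmosomal plaque gene Pkp2 (1.41).

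Of 17 measured other keratins and keratin partners 5 were higher and 0 lower in hypergravity than at standard gravity in lactation (4.49% and 4.94% of all probe sets). Krt23, a type I keratin, had means of 7.92 and 4.45 (log2 fold change 3.47, limma adjusted p = 2.4e-05), and Krt14, the basal cell keratin, 8.60 and 6.96 (1.64, limma adjusted p = 0.0074). In lactation at standard gravity 1 was higher and 3 lower than in pregnancy, with Krt23 at -2.08 and Krt14 at -1.46; over all probe sets 34.1% were called in this contrast, so the list's count is no larger a share. In hypergravity 3 were higher and 1 lower (14.6% and 14.6% of all probe sets), with Krt23 raised by 1.93. Krt23 and Krt14 were thus lower in lactating rats at standard gravity than in lactating rats in hypergravity and than in pregnant rats at standard gravity.

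Of 17 measured apical membrane and mucin partner genes 5 were higher and 1 lower in hypergravity than at standard gravity in lactation (4.49% and 4.94% of all probe sets). Lgals3, a galectin, was raised by 3.68 (means 10.88 and 7.2, limma adjusted p = 6.5e-07) and the membrane mucin Muc4 by 2.53 (7.93 and 5.40, limma adjusted p = 2.1e-06). Macrophage list means were also higher in this contrast (7.77 to 8.40, against 7.10 to 7.43). Which cells gave the Lgals3 change was not tested. Prom2, the paralogue of Prom1, was lower in hypergravity in lactation (log2 fold change -2.48, means 4.37 and 6.86, limma adjusted p = 1.9e-05). In lactation at standard gravity 5 were higher and 6 lower than in pregnancy (16.8% and 17.3% of all probe sets), with Muc4 at -3.05, the sialyltransferase St6galnac2 at -2.05 and Prom2 at 2.35. Prom2 was therefore higher in lactation at standard gravity, where Prom1 was lower. Of 15 epithelial transcription and splicing factors 2 were higher and 0 lower in hypergravity in lactation (4.49% and 4.94% of all probe sets), Tfap2c (0.98, limma adjusted p = 0.0038) and Stat5b (0.95, limma adjusted p = 0.032). In pregnant mammary gland 0 genes of all 15 lists were called between hypergravity and standard gravity.

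Markers of other cell types moved in the same contrasts, and their part in the results on the 7 genes was not tested. Between hypergravity and standard gravity in lactation, where 9.43% of all probe sets were called, 3 of 9 macrophage genes were higher, with Cd14 raised by 3.46, and the list mean ran from 7.77 to 8.40 in hypergravity, against 7.10 to 7.43 at standard gravity. Basal and myoepithelial genes had 2 of 14 higher, with list means of 7.45 to 7.69 in hypergravity, against 7.06 to 7.62 at standard gravity. Adipocyte genes had 1 of 17 higher and 2 lower, with 7.50 to 8.14 in hypergravity, against 7.59 to 8.40 at standard gravity. Of the milk protein genes 1 of 6 was lower, Wap by -0.34 on the log2 scale, with list means of 12.94 to 13.02 in hypergravity, against 13.10 to 13.22 at standard gravity. Of 9 mesothelium genes 0 were called by limma, with list means of 4.55 to 4.68 in hypergravity, against 4.34 to 4.49 at standard gravity. In both groups 7 of these 9 genes lay under the array median. The 4 hypergravity arrays lay under the 5 standard gravity arrays in milk protein mean and above them in macrophage and mesothelium mean.

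In lactation against pregnancy at standard gravity, where 34.1% of all probe sets were called, 6 of 9 macrophage genes were lower (list means 7.10 to 7.43 in lactation, against 8.25 to 8.69 in pregnancy). Of 12 fibroblast and matrix genes 4 were lower (9.22 to 9.39, against 9.13 to 9.91). Of 6 milk protein genes 2 were higher, Lalba by 1.52 and Wap by 0.26. The fibroblast and milk protein counts are near the share over all probe sets. Milk protein list means were 13.10 to 13.22 in lactation, against 12.63 to 12.99 in pregnancy, high on the signal scale, where differences may be understated. Mesothelium genes had 1 of 9 higher and 4 lower, with Rspo1, a secreted Wnt pathway activator, at -6.13, and list means of 4.34 to 4.49 in lactation, against 5.27 to 5.59 in pregnancy. In lactation against pregnancy in hypergravity, where 29.3% of all probe sets were called, 4 of 8 lymphocyte genes were lower, with Cd3g, a T cell receptor subunit, at -2.74, and list means of 3.99 to 4.39 in lactation, against 4.6 to 7.2 in pregnancy. In the same contrast 1 of 9 mesothelium genes was lower, again Rspo1 (-5.44), with list means of 4.55 to 4.68 in lactation, against 4.85 to 5.91 in pregnancy. The mesothelium means did not overlap between the stages at either gravity, nor the lymphocyte means in hypergravity. Rspo1 with its large changes enters the mesothelium means, which are therefore not read as a level of mesothelium. Of the 9 mesothelium genes 7 lay under the array median in both lactating groups. In pregnancy 4 did at standard gravity and 6 in hypergravity. Of the 8 lymphocyte genes 6 lay under it in lactating and 2 in pregnant hypergravity rats. Without the arrays that carried markers of another tissue (M212H, M50H, M56H, M52S and M57S) 4 of the 7 genes were called for gravity in lactation, and 5 for the difference of stage effects. Of all 31042 probe sets 2769 and 915 were called in this fit, which had smaller groups.

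In liver Prom1 was the gene that moved. It had 8.94, 8.88, 8.16, 9.33 and 9.74 in lactating hypergravity rats, against 10.92, 10.55, 10.45, 10.64 and 10.21 in pregnant hypergravity rats. All lactating values lay below all pregnant ones, with a 2.91-fold lower mean (log2 fold change -1.54, SE 0.28, limma adjusted p = 0.0034), and it was the 1 of 7 genes called or without overlap, where 3.23% of all probe sets were called (2.01% lower, 1.22% higher) and 4.24% did not overlap. At standard gravity it had 10.38, 10.08, 9.41, 10.11 and 10.17 in lactation, against 10.72, 11.03, 10.76, 9.41 and 10.41 in pregnancy, and these groups overlapped (log2 fold change -0.43, 95% interval -1.02 to 0.16, limma adjusted p = 0.63). The difference between these stage effects was -1.11 (SE 0.40, limma adjusted p = 0.32) and was not called. Within lactation hypergravity and standard gravity differed by -1.02 (SE 0.28, limma adjusted p = 0.13).

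Krt8 in liver had 8.92, 9.59, 8.48, 9.44 and 9.67 in lactating hypergravity rats, against 8.28, 8.72, 8.31, 8.38 and 8.35 in pregnant hypergravity rats. The groups overlapped at 1 rat on each side, and the difference of 0.81 (SE 0.22, limma adjusted p = 0.051) missed the threshold; it passed without L216S (limma adjusted p = 0.034), L210H (0.042), L55H (0.047), L212H (0.01) or L202S (0.048). Krt18, its partner, differed by -0.13 (95% interval -0.47 to 0.20). In the other liver contrasts limma called 0 of the 7 genes, where 0.622% of all probe sets were called for stage at standard gravity (3382 had an unadjusted p under 0.05), 0.103% for gravity in pregnancy (2507), 0.406% for gravity in lactation (4238) and 0.126% for the difference of stage effects (3500). Among the 7 genes Prom1 had an unadjusted p under 0.05 for gravity in lactation (0.0018), and Prom1 (0.012) and Krt8 (0.047) had it for the difference of stage effects. The mean of 9 measured cholangiocyte genes, a list of bile duct markers, ran from 4.28 to 4.74 in lactating and from 4.6 to 4.82 in pregnant hypergravity livers, 6 of the 9 lay under the array median in both groups, and their part in the Prom1 result was not tested.

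In adipose tissue the keratins spread widely between rats and 0 of the 7 genes were called by limma in any of 5 contrasts. Over all probe sets 0.00322% were called for stage at standard gravity and 0% in the other 4, and unadjusted p-values under 0.05 numbered 1852 for stage at standard gravity, 1141 for stage in hypergravity, 1283 for gravity in pregnancy, 709 for gravity in lactation and 1055 for the difference of stage effects. Krt18 had 7.39, 8.44, 7.12, 6.91 and 8.51 in lactating standard gravity rats, against 6.00, 7.66, 7.53, 5.57 and 4.10 in pregnant standard gravity rats. These groups overlapped, with a difference of 1.5 (95% interval 0.30 to 2.70, limma adjusted p = 0.77). Krt7 had a difference of stage effects of -1.84 (limma adjusted p = 1). These were the only adipose results of the 7 genes with an unadjusted p under 0.05 (0.017 for Krt18 and 0.021 for Krt7). A48S, whose skeletal muscle list stood at 11.69 and whose mesothelium list was the lowest of the adipose arrays at 6.41, had the lowest adipose Krt7 (3.93), Krt8 (5.08) and Krt18 (4.10). Mesothelium list means ran from 6.41 to 9.50 in adipose arrays, against 4.34 to 5.91 in mammary arrays and 5.0 to 5.62 in liver arrays.

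Krt19 levels in mammary gland and adipose tissue went together by rat. The rat of array M201S had the highest value of its group in all 3 tissues (9.97 in mammary gland, 10.28 in adipose tissue and 6.14 in liver), and rats 57S (8.26, 6.86 and 4.59) and 60H (7.76, 6.14 and 4.51) had the lowest of theirs. Over 19 rats, as deviations from the group means, Krt19 in mammary gland and adipose tissue correlated with Pearson r = 0.78 (permutation p = 2.9e-04, adjusted p = 0.0061, two-sided, permuted within groups) and Spearman rho = 0.77 (permutation p = 8.0e-04, adjusted p = 0.017). Without 57S and 60H, the rats farthest from the median in mammary gland, r was 0.64, and within single groups it ran from 0.20 to 0.99. For mammary gland and liver r was 0.65 (permutation p = 0.0052, adjusted p = 0.055; rho 0.55, permutation p = 0.02, adjusted p = 0.21), or 0.41 without the same rats, and for adipose tissue and liver 0.44 (permutation p = 0.09, adjusted p = 0.34; rho 0.40, permutation p = 0.12, adjusted p = 0.41). The relation was examined after the values had been seen, in a family of 21 (7 genes by 3 pairs of tissues), and Krt19 between mammary and adipose tissue was the only one that passed after adjustment. Over all probe sets the median r between mammary and adipose tissue was 0.13, and 0.287% had an r at least as high. The arrays of a rat share the animal, and in M57S the hepatocyte list stood at 5.28, the third highest of the mammary arrays.

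**Figure D4:**
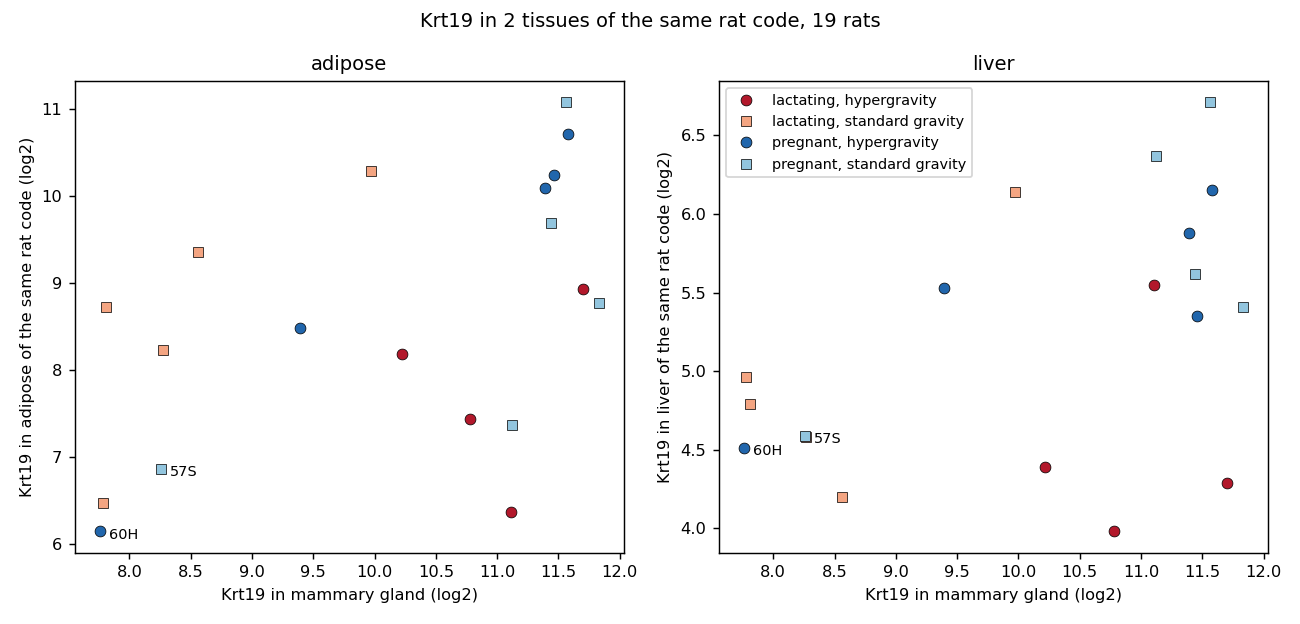
Krt19 on the log2 scale in mammary gland (horizontal) against adipose tissue (left) and liver (right) of the same rat code, 19 rats, coloured by stage and gravity. Rats 57S and 60H are low on both axes of both panels.

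In the microgravity set 0 of the 7 genes were called by limma. Over all probe sets 0.367% were called between microgravity and flight control (4100 had an unadjusted p under 0.05), 0.493% between microgravity and vivarium control (2951) and 0.00322% between the controls (2851). Muc1 had 10.07, 9.74, 9.69 and 9.82 in microgravity, against 9.30, 9.23, 8.66 and 9.57 in flight control and 9.42, 9.65, 9.27 and 9.48 in vivarium control. All 4 microgravity arrays lay above all 8 control arrays; groups did not overlap for 6.43% of all probe sets against flight control and 9.09% against vivarium control. The difference was 0.64 against flight control (95% interval 0.26 to 1.01, limma adjusted p = 0.14) and 0.37 against vivarium control (95% interval -0.00 to 0.75, limma adjusted p = 0.53), and the 2 contrasts share the microgravity arrays. Prom1 had 10.72, 10.78, 10.56 and 10.89 in microgravity, against 10.45, 10.60, 9.88 and 10.35 in flight control and 10.51, 10.51, 10.38 and 10.47 in vivarium control. Its difference was 0.42 against flight control (limma adjusted p = 0.23), with overlap, and 0.27 against vivarium control (limma adjusted p = 0.63), without it. Against flight control Muc1 (0.0028) and Prom1 (0.012) had an unadjusted p under 0.05, and in the other contrasts of the set 0 of the 7 genes had.

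Markers of other tissues also differed in the set, and their part in these values was not tested. The lymphocyte list mean ran from 5.04 to 6.44 in microgravity, against 5.53 to 8.87 in flight control and 5.08 to 5.37 in vivarium control. The skeletal muscle list mean ran from 4.01 to 4.10 in microgravity, against 4.10 to 4.49 in flight control and 4.15 to 7.64 in vivarium control. In these lists 0 genes were called by limma in any contrast of the set.

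The 4 keratins and Epcam overlapped between microgravity and both controls. Krt8 differed from flight control by 0.30 (95% interval -0.00 to 0.61), Krt18 by 0.16 (-0.19 to 0.51) and Epcam by 0.05 (-0.22 to 0.33). Krt7 ran from 5.08 to 6.47 in microgravity, against 4.31 to 6.62 in flight control and 4.75 to 5.35 in vivarium control. Krt19 again had single low arrays, with 9.31 the lowest in microgravity, against 10.66 in flight control and 9.12 in vivarium control, and its interval against flight control was the widest of the 7 genes (-1.75 to 0.78).

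**Figure D5:**
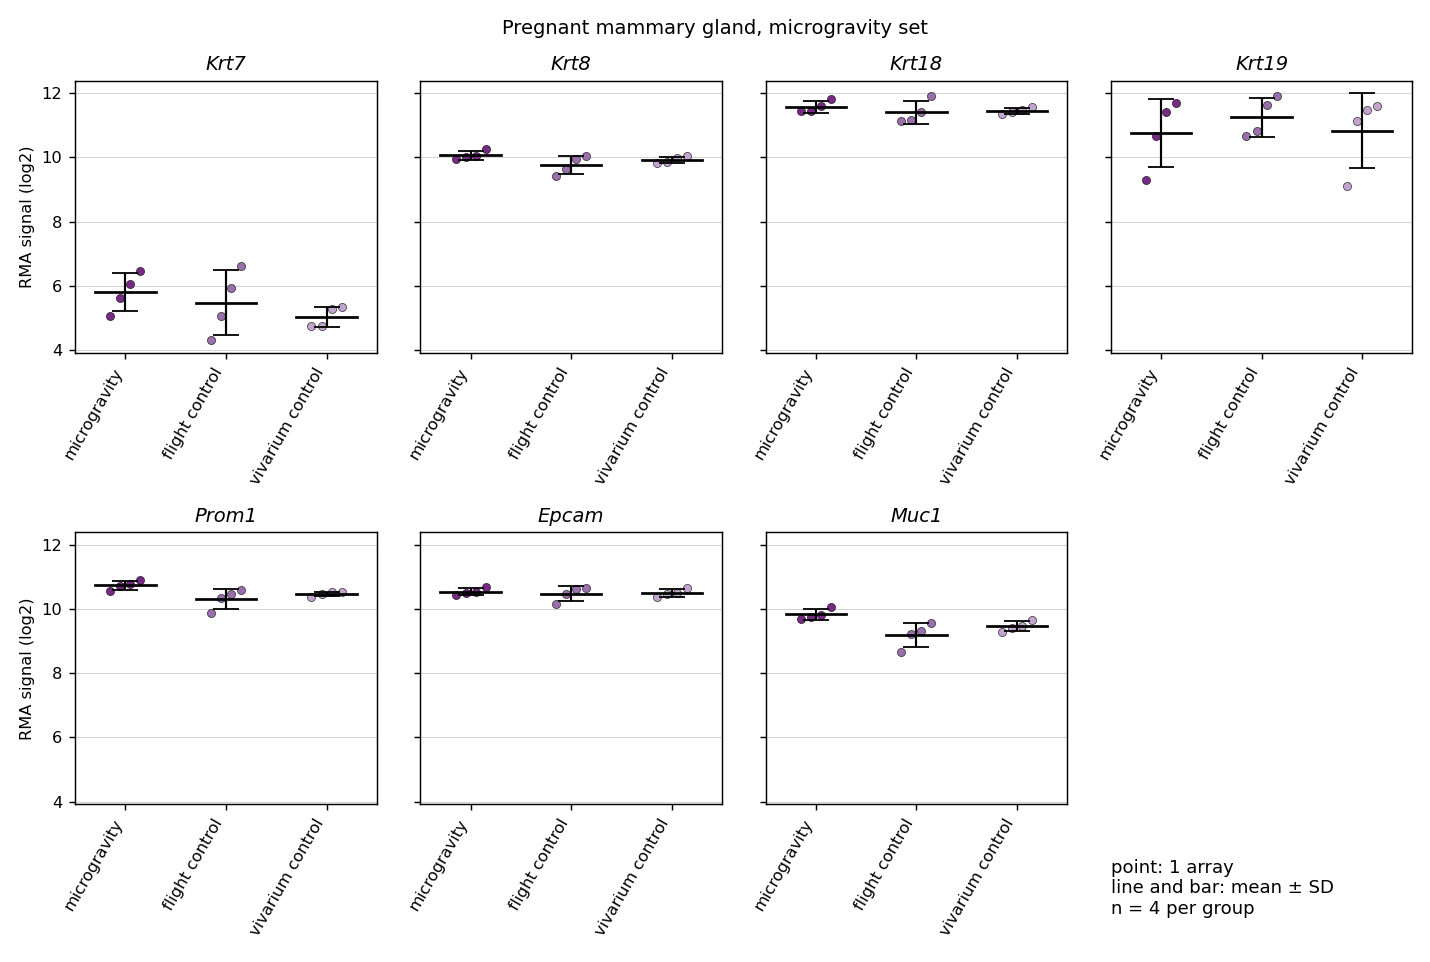
RMA signal on the log2 scale of the 7 genes in pregnant mammary gland of the microgravity set, 4 arrays per group as points, with mean ± SD. The Muc1 arrays of microgravity, 9.69 to 10.07, lie above those of both controls, and the groups overlap for Krt7, Krt8, Krt18, Krt19 and Epcam.

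Ordered by group mean over the 12 groups of the standard gravity and hypergravity set, neighbouring groups mostly overlapped. Of 11 neighbours in the order, ranges were apart at 2 for Krt18, 2 for Epcam, 1 for Krt8, 1 for Muc1 and 0 for Krt7, Krt19 and Prom1. For Krt18 and Epcam the lactating mammary group at standard gravity (10.18 ± 0.19 and 9.99 ± 0.25, SD, n = 5) stood alone, apart from both neighbours. The order of Krt8 parted between pregnant hypergravity liver (8.41 ± 0.18, SD, n = 5) and lactating standard gravity adipose tissue (6.75 ± 0.56, SD, n = 5), and that of Muc1 between the mammary groups and the rest. Prom1 was highest in pregnant hypergravity liver (10.55 ± 0.26, SD, n = 5) and lowest in both lactating mammary groups (6.99 ± 0.56, SD, n = 4, in hypergravity and 6.97 ± 0.73, SD, n = 5, at standard gravity).

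Among the 7 genes, as a description over points that share arrays and normalization, Krt8 and Krt18 had r = 0.93 over the 12 group means and 0.88 over the 19 mammary arrays, and Krt8 and Epcam 0.76 and 0.89. Epcam and Muc1 had 0.98 over the group means, where the tissues set the spread, and -0.38 over the mammary arrays. Prom1 and Muc1 had -0.65 over the mammary arrays. The genes closest to the mean profile of the 7 genes were Slc14a1, Arhgap39, Slc45a3, Ttc7a and Foxq1 over the 12 group means (r = 0.98 each, of 9281 genes compared) and Shf (0.96), Sod2 (0.95), Renbp (0.94), Angptl4 (0.94) and Exoc7 (0.93) over the 19 mammary arrays (9320 genes compared).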

How the data were processed

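Arrays of mammary gland, liver and adipose tissue were used as deposited: the authors' table gives log2 signals made with RMA, per the submitters' processing notes, and no RMA version or list of arrays processed together is given in the sources used here. Per the labels' protocols RNA came from TRIzol (mammary gland, liver) or the RNeasy Lipid kit (adipose tissue), with 25 ng amplified per array, so tissue contrasts with adipose tissue also carry the extraction. Groups came from the labels. Of 31042 probe sets, 20826 had 1 symbol, 436 several and 9780 none in the platform annotation, and 20758 of the first matched a RefSeq gene.

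limma 3.58.1 in R 4.3.3 fitted group means separately in mammary gland (19 arrays), liver (20), adipose tissue (19), the microgravity set (12) and all 3 tissues (58), with Benjamini-Hochberg adjustment over all probe sets; called means an adjusted p under 0.05. The script was tested on simulated data. Nothing says that the arrays of a microgravity set group come from separate animals, so p-values there may measure technical spread. A gene's brightest probe set was to be used, and each member had 1. The 7 members, the gene lists and the rule for named genes (up to 3 called genes of largest change per list, and the 5 closest profiles) were chosen with earlier results of these data known. List genes numbered 220, of which 191 had a probe set.

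Rat codes were read as pairing the tissues: deviations of the same rat correlated with a median r of 0.13 between mammary gland and liver, 0.12 between mammary gland and adipose tissue and 0.16 between adipose tissue and liver. In these pairings 9, 8 and 9 of 19 arrays had their highest r with the array of the same code. Permutation tests across rats drew 100000 permutations within groups. Alternatives were the left-out arrays kept, arrays with markers of another tissue left out, each array left out, other eBayes settings, array weights, only the groups compared, 2 rescalings, a filter on dim probe sets, means of a gene's probe sets and a replicate block.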

Additional observations from a re-analysis of the deposited data

Results flagged for a closer look

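Single arrays stood apart from the rest of their group, by Dixon's test at 95%, in 10 of 105 sets of gene and group, where chance gives about 1 in 20. Rat 57S was low in pregnant mammary gland at standard gravity for Krt19 (8.26), Epcam (10.42) and Muc1 (8.65), with a hepatocyte list mean of 5.28. In the same group Krt8 was high in M44S (10.63). Krt8 was low in M201S (8.12) among lactating standard gravity arrays. Krt18 was low in M212H (11.05), whose skeletal muscle list stood at 7.76, and Epcam was low in M56H (10.28), whose hepatocyte list stood at 9.56. In liver L55H was high for Krt7 (4.22) and Krt8 (8.72), and in adipose tissue A44S was high for Epcam (5.12).

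The mammary effect of stage differed between hypergravity and standard gravity by the test of that difference for Krt7 (2.77), Krt8 (1.54), Krt18 (1.40) and Epcam (1.02).

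The left-out arrays M210H and A210H held these values outside those of their labelled group. In A210H, labelled adipose, Krt8 was 9.30, Krt18 10.46, Krt19 11.02, Epcam 10.14 and Muc1 9.95, above every other adipose array for all of these but Krt19. Its milk protein mean was 13.07. Beside the lactating mammary arrays, its Krt18 and Epcam lay within the standard gravity ranges (9.99 to 10.48 and 9.61 to 10.21). Both lay below the hypergravity ranges (11.05 to 11.82 and 10.65 to 11.06). Its Krt8 and Krt19 lay above all standard gravity arrays and within the hypergravity ranges (9.01 to 10.36 and 10.22 to 11.70). Its Muc1 lay within both ranges. In M210H, labelled mammary, Prom1 was 7.65, above the other 4 arrays of its group, and Epcam was 3.40 and Muc1 3.47.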

How the results depend on the processing

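Of 4728 results for single genes under alternatives 4649 kept their direction where called and their side of the threshold, 50 newly passed it, 27 lost it and 2 reversed; 111 values called in neither setting changed sign. Keeping M210H and A210H in their labelled groups left 2 of the 7 genes called for gravity in lactating mammary gland and 1 for the difference of stage effects, and turned Epcam to -0.57 (limma adjusted p = 0.86) and -0.48 (0.94) in these contrasts; it also ended the Epcam call for stage at standard gravity (-0.85, 0.59). Between adipose tissue and liver it ended the calls of Epcam (limma adjusted p = 0.18) and Muc1 (0.73). M210H and A210H went against their tissue labels, so this setting mixes tissues and cannot decide on stage or gravity. With only the groups compared, 1 was called for mammary stage in hypergravity. In liver, stage in hypergravity gave 2 called with trend and robust eBayes, 3 with array weights, 2 after repeated quantile normalization, 2 after the filter and 2 with means of probe sets, the added gene being Krt8 and, with array weights, Epcam as well. Of all 31042 probe sets 1019, 1232 and 1120 were called in the first 3 of these settings. After the filter 1167 of 15521 were called, and 4 of the 7 genes had a value. With means of probe sets 792 of 14217 genes were called. Leaving out 1 array gave 1 to 3 called for mammary stage in hypergravity and 1 to 2 for liver stage in hypergravity. Over all probe sets, the difference of stage effects was called for 1250 in the reported fit, 788 with M210H and A210H kept and 1996 with array weights; gravity in lactation for 2928, and 5376 with array weights; and stage in hypergravity for 9080, and 5923 with only the groups compared. In the microgravity set 114 were called against flight control, from 23 with only the groups compared to 208 after median centring, and 153 against vivarium control, from 11 without VIVA and VIVC to 749 with array weights. The paired fit with the rat as a replicate block called Krt18 lower in mammary gland than in liver, averaged over the 4 stage and gravity groups (-0.39, limma adjusted p = 0.042). It changed no other call among the 7 genes. The letters of the microgravity set did not pair the arrays (0 of 4 pairs had an r over 0.1 in each comparison), and a replicate block on them left 0 called. RMA signals near the array medians, as for Krt7 in liver and lactating standard gravity mammary gland and Epcam and Muc1 outside the mammary gland, may understate differences.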
